A study of Mus musculus with 6 samples.

Results

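Germ cells of the control XX gonad (the fetal ovary) at E15.5 were picked out of single cell mRNA sequencing libraries by their transcripts. A cell was taken as a germ cell when it held at least 5 UMIs of *Dazl* and at least 2 UMIs of *Ddx4*, a UMI being a barcode that marks 1 captured mRNA molecule, after the filter of the study (more than 2500 and fewer than 9000 genes, under 25% mitochondrial and under 20% *Hbb* UMIs). This gave 298 of 5330 cells (5.59%) in control XX 1 and 222 of 4781 cells (4.64%) in control XX 2, or 520 of 10111 control XX cells and of 39350 cells in all 6 libraries. *Dazl* and *Ddx4* chose these cells, so their levels are given only as a description: the median cell had 29 and 30.5 UMIs of *Dazl* and 8 UMIs of *Ddx4* in either library. Just inside the rule stood 22 and 20 cells with 5 to 6 UMIs of *Dazl*, and just outside it 25 and 16 cells that had enough *Ddx4* but 3 to 4 UMIs of *Dazl*. For *Ddx4*, 38 and 27 cells inside the rule had 2 UMIs. Outside it, among cells with enough *Dazl*, 37 and 29 had 1 UMI of *Ddx4* and 29 and 12 had 0.

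The study captured single cells with the 10x Genomics system in 3 groups of 2 libraries. These were the ovary (control XX), the testis (control XY) and dKO XY, the XY gonad without *Amh* and *Inhbb*, which code for anti-Mullerian hormone and a subunit of activin B. Both control groups were *Amh* +/+ and *Inhbb* +/+ and the dKO was *Amh* -/- and *Inhbb* -/-, all on a C57BL/6 background. The gonads of 1 animal were pooled and the dissociated cells were frozen and thawed before capture. By the same rule dKO XY gave 442 and 388 germ cells and control XY 15 and 9. Control XX and dKO XY differ in the sex chromosomes, the genotype and the kind of gonad, which cannot be told apart here. The study reports meiotic germ cells at the poles of dKO XY gonads and non-meiotic ones in the central cords.

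In the fetal ovary, germ cells stop dividing by mitosis and enter the prophase of meiosis. STRA8, with its partner MEIOSIN, drives this entry. REC8 and other meiotic cohesins then form the axis of each chromosome, SYCP3 and SYCP2 build the lateral elements on it, SYCP1 and the central element proteins join the homologues, and SPO11 makes the DNA breaks that DMC1 and its partners repair by recombination. In the fetal testis, germ cells are kept out of meiosis and arrest instead.

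The 5 germ cell markers lie on GRCm38 at chr17:50279395-50293636 (*Dazl*), chr13:112598333-112652475 (*Ddx4*), chr6:34920163-34939344 (*Stra8*), chr3:102818499-102936100 (*Sycp1*) and chr10:88459569-88473236 (*Sycp3*). *Sycp3*, which the rule did not use, had a UMI in 99.0% of the germ cells of control XX 1 and in all of those of control XX 2. *Sycp1* was found in 99.3% and 99.1% and *Stra8* in 92.3% and 75.7% of them. Among all other control XX cells, UMIs of *Sycp3* were found in 27.8% and 16.7%, of *Sycp1* in 21.0% and 10.7% and of *Stra8* in 10.5% and 3.25%, with median depths of 23114 and 18585 UMIs against 37662 and 34182 in the germ cells. When each germ cell was thinned to 10000 UMIs, which left out 21 and 19 shallower cells, *Sycp1* was found in 95.3% and 97.5% and *Stra8* in 80.1% and 61.1%. The markers named for meiotic germ cells were thus present in these cells.

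Part of the germ cells also held transcripts of somatic cells. Of 33 markers of granulosa, stromal, Sertoli and epithelial cells, 102 (34.2%) and 67 (30.2%) of the germ cells had at least 8 UMIs per 10000, a limit set after seeing the data at the gap between 2 groups of cells. The level of *Dazl* in these cells was 445 and 581 CPM (UMIs per 1000000 UMIs summed over the cells), and 1205 and 1118 CPM in the germ cells below the limit. All 52 and 27 germ cells among the 8% of cells with the highest doublet scores of their library were above it. Granulosa markers summed to 1367 and 882 CPM in all germ cells, 107 and 56.5 CPM in those below the limit and 4254 and 2079 CPM in the other control XX cells. The comparisons across genes below were therefore repeated without these cells. For the 33 markers themselves, which set the limit, levels and counts without these cells follow in part from that choice. Whether these cells are doublets was not tested. Immune markers, which are not among the 33, summed to 1.83 and 55.6 CPM in all germ cells and to 1.54 and 78.1 CPM in those below the limit. Leaving out the cells above the limit thus did not remove the immune transcripts of control XX 2. The 2 control XX libraries shared 4 cell barcodes.

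**Figure D1:**
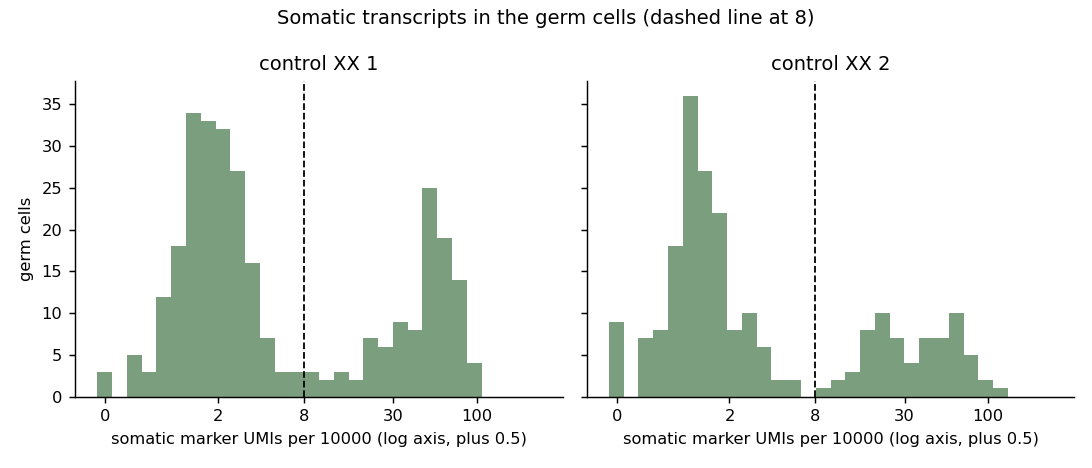
Number of germ cells (vertical axis) by UMIs of 33 somatic markers per 10000 UMIs (horizontal log axis, after adding 0.5) in each control XX library. The counts fall into 2 groups on either side of the dashed line at 8, with 102 of 298 and 67 of 222 germ cells to the right of it.

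The germ cells were set beside the other control XX cells of their library. Among genes with at least 100 CPM in the germ cells of both libraries, *Stra8* was first by the mean of the log2 folds of both libraries (92.8 and 137 fold), followed by *Mov10l1*, a helicase of the piRNA pathway (69.2 and 146 fold). In control XX 1 alone *Dppa5a* stood above *Stra8* (110.5 fold), and in control XX 2 alone *Mov10l1* did. The first 20 genes by this measure also held *Dppa5a*, *Ankrd31*, *Meioc*, *Hormad1*, *Figla*, *Smc1b*, *Tex12*, *Tex101*, *Syce1*, *Stk31*, *Rhox1*, *Tuba3a*, *Slc25a31*, *Rpl39l*, *Rbmxl2* and *RP23-451C8.3*, and *Dazl* and *Ddx4*, which chose the cells. *Smc1b*, the meiotic form of a cohesin subunit, was at 2423 and 2908 CPM in the germ cells and 39.8 and 27.2 CPM in the rest. *Tex15*, which acts in break repair and in silencing of transposons, was at 1010.0 and 1050.1 CPM. The gametocyte surface gene *Tex101* was at 539 and 792 CPM in the germ cells and 10.2 and 7.30 CPM in the others. These folds describe how the cells were chosen and were not tested.

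Genes of the later oocyte were at or near 0. *Figla*, which codes for a transcription factor of oocytes, was already at 101 and 154 CPM, but the zona pellucida genes *Zp1*, *Zp2* and *Zp3* reached at most 0.167 CPM in either library, and the growing oocyte factors *Gdf9* (0.75 and 0.588 CPM), *Bmp15* (0.583 and 0.47 CPM) and *Nobox* (0.0834 and 0.823 CPM) were below 1 CPM. Within the list of male germ line and piRNA genes, *Nanos2* was at 0.0834 and 0 CPM and *Dnmt3l* at 0 and 0.118 CPM, while *Mov10l1* was at 213 and 222 CPM and *Mael* at 161 and 218 CPM.

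The germ cells spread from cells with much *Stra8* to cells with much *Sycp1*. Each cell was given a score, the log2 ratio of *Sycp1* to *Stra8* UMIs per 10000 after adding 0.5 to each, and the 520 cells were split into 3 classes of like size at scores of -0.28 and 2.60. The class of lowest scores, called Stra8-high, held 127 and 47 cells (42.6% and 21.2% of the library), the middle class 102 and 71 (34.2% and 32.0%) and the class of highest scores, called Sycp1-high, 69 and 104 (23.2% and 46.8%). Control XX 1 thus had the larger share of Stra8-high and control XX 2 that of Sycp1-high cells. The score is continuous, with 50 cells within 0.25 of the lower limit and 21 within 0.25 of the upper one, so the classes are ranges and not cell types.

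Cells rich in *Stra8* also held *Sycp1*. Of the germ cells, 162 (54.4%) and 71 (32.0%) had at least 10 UMIs of *Stra8*, and 137 and 63 of these had at least 10 UMIs of *Sycp1* as well. No UMI of *Stra8* was found in 23 (7.72%) and 54 (24.3%) germ cells, of which 19 and 51 had at least 10 UMIs of *Sycp1*. Another 42 and 37 germ cells, some of them without *Stra8*, had fewer than 10 UMIs of each gene. The score is a ratio, so such cells were classed too, and a cell of the Stra8-high class need not hold much *Stra8*. In control XX 1, for example, 1 cell of that class had 3 UMIs of *Stra8*, 2 of *Sycp1* and 12 of *Pou5f1*. In the Stra8-high class the level of *Stra8* was 1186 and 997 CPM and that of *Sycp1* 518 and 469 CPM. In the Sycp1-high class *Stra8* was at 58.0 and 42.3 CPM, still above the 7.26 and 2.33 CPM of the other cells, and *Sycp1* at 1926 and 1779 CPM. The share of germ cells above the somatic limit was 30.7% and 36.2% in the Stra8-high, 46.1% and 43.7% in the middle and 23.2% and 18.3% in the Sycp1-high class, so the middle class had the most of them in both libraries. Immune markers summed to 2.03 and 1.36 CPM in the Stra8-high, 2.15 and 2.30 CPM in the middle and 1.05 and 105 CPM in the Sycp1-high class, so that those of control XX 2 were mostly in its Sycp1-high cells, and their part in the differences between the classes was not tested.

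**Figure D2:**
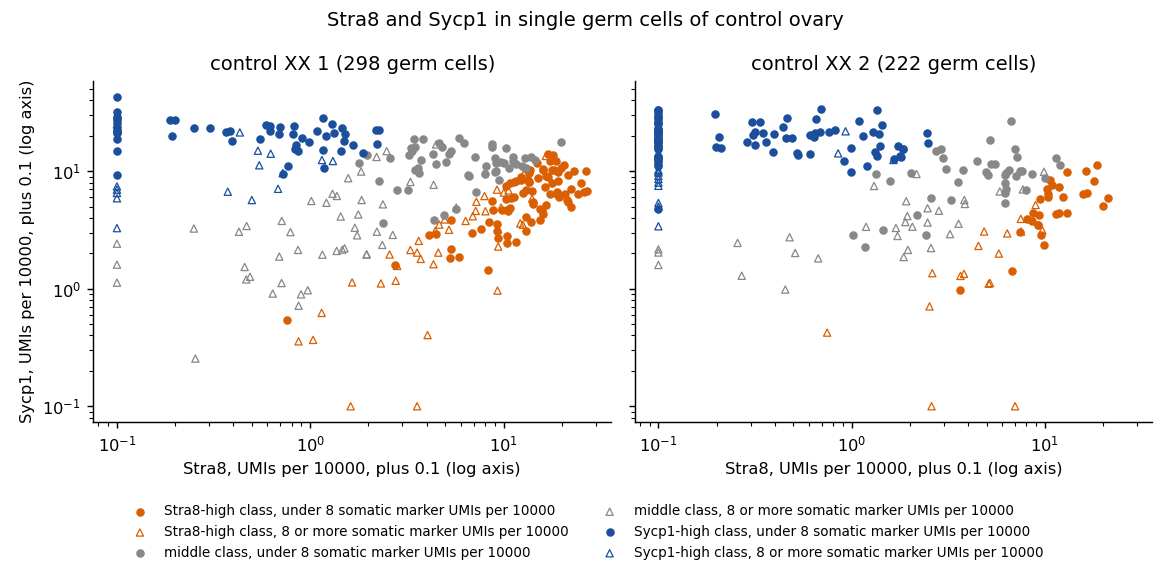
Sycp1 (vertical log axis) against Stra8 (horizontal log axis) in UMIs per 10000 after adding 0.1, with 1 point per germ cell, in control XX 1 and control XX 2. Filled points run from more Stra8 than Sycp1 (Stra8-high class), through the middle class, to high Sycp1 with little Stra8 (Sycp1-high class). The classes are set by the ratio, so some filled points are low in both genes. Open triangles, the cells with at least 8 somatic marker UMIs per 10000, lie mostly at lower levels of both genes.

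To ask which genes moved along this spread, the UMIs of each class were summed per library and the Sycp1-high class was set against the Stra8-high one with edgeR, with the library as a block and without *Stra8* and *Sycp1*, which made the score. Of 12002 genes tested, 6543 (54.5%) passed an adjusted p of 0.05, with 3411 (28.4%) higher and 3132 (26.1%) lower in the Sycp1-high class, and a median log2 fold change of -0.03. DESeq2 called 3988 genes. The classes were made from the same cells in which the genes were measured, and there were only 2 animals. These p-values thus say that a gene moved with the ratio of *Sycp1* to *Stra8* on average over both libraries and no more. They do not ask for a change in each library. Counts of a gene group below are to be read against the 28.4% and 26.1%.

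Genes of the chromosome axis rose almost without exception. Of the 8 genes for cohesins and axis proteins that were tested (of 9 in the files), 7 were higher in the Sycp1-high class and 1, *Rec8*, was lower, with a median log2 fold change of 1.27. *Sycp3*, a lateral element protein, was at 749 and 897 CPM in the Stra8-high class, 1406 and 1646 CPM in the middle and 3079 and 3234 CPM in the Sycp1-high class (log2 fold change 2.12, SE 0.08, adjusted p = 3.65e-20). Both libraries rose step by step and lay closer to each other than to the next class. Its partner *Sycp2* went from 102 and 82.2 to 579 and 467 CPM (2.67, SE 0.10, adjusted p = 4.33e-20) and the cohesin subunit *Rad21l* from 25.3 and 26.5 to 135 and 125 CPM (2.54, SE 0.14, adjusted p = 6.98e-16). *Smc1b* was already at 1769 and 1653 CPM in the Stra8-high class and reached 4035 and 3699 CPM (1.34, SE 0.08, adjusted p = 6.34e-16), and *Hormad1*, which marks axes not yet joined, went from 354 and 414 to 658 and 757 CPM (1.05, SE 0.09, adjusted p = 1.09e-11).

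*Rec8* took the opposite course. This cohesin subunit, which like *Stra8* is induced at entry into meiosis, was at 154 and 179 CPM in the Stra8-high, 58.3 and 56.0 CPM in the middle and 10.1 and 9.49 CPM in the Sycp1-high class. The fall had a log2 fold change of -3.91, SE 0.17, adjusted p = 4.73e-19 and was of -3.80 and -4.10 in the separate libraries. Without the cells above the somatic limit, and with the same score limits, *Rec8* was at 170.5 and 197 CPM in the Stra8-high and 2.72 and 4.20 CPM in the Sycp1-high class. With these cells, the level in the Sycp1-high class was below that of the other control XX cells (52.6 and 23.0 CPM). *Meioc*, which is needed to keep cells in meiotic prophase, rose from 239 and 246 to 419.6 and 380.2 CPM (0.89, SE 0.10, adjusted p = 1.96e-09). Of the 7 genes tested for entry into meiosis, 2 were higher and 3 lower.

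The genes of the central element and of DNA breaks rose as well. All 5 central element genes tested (of 6 in the files) were higher in the Sycp1-high class, with a median log2 fold change of 1.33. *Syce3* went from 116 and 164 CPM over 267 and 343 CPM to 838 and 1002 CPM (2.92, SE 0.10, adjusted p = 1.58e-21), and *Six6os1* from 545 and 477 to 2207 and 2154 CPM (2.25, SE 0.08, adjusted p = 3.23e-20). Of 7 genes for DNA breaks, 5 were higher and none lower. *Prdm9*, the histone methyltransferase that sets where breaks fall, was at 56.2 and 58.4 CPM in the Stra8-high, 186 and 192 CPM in the middle and 385 and 336 CPM in the Sycp1-high class (2.85, SE 0.11, adjusted p = 1.15e-19). *Spo11*, the enzyme that cuts, went from 23.1 and 28.5 to 130.1 and 156 CPM (2.65, SE 0.14, adjusted p = 1.33e-16) and *Ankrd31*, a partner of the break machinery, from 44.7 and 48.9 to 302 and 269.7 CPM (2.84, SE 0.12, adjusted p = 5.62e-19).

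Recombination genes rose in most cases. Of 20 tested, 14 were higher, 3 lower and 3 did not pass. *Meiob*, which binds single-stranded DNA in meiosis, went from 32.7 and 31.2 to 227 and 218 CPM (2.96, SE 0.13, adjusted p = 4.33e-19), the strand exchange protein *Dmc1* from 103 and 123 to 275 and 264 CPM (1.45, SE 0.11, adjusted p = 4.23e-13) and *Msh4*, of the crossover machinery, from 9.98 and 8.15 to 38.8 and 44.5 CPM (2.29, SE 0.22, adjusted p = 1.57e-10). *Mnd1*, which acts with *Dmc1* in strand exchange, fell from 47.8 and 48.2 to 12.9 and 21.0 CPM, and *Rpa2*, which binds single-stranded DNA, fell from 197 and 215 to 45.5 and 56.5 CPM. Of 5 genes for the attachment of telomeres, 3 were higher, among them *Ccdc79*, at 64.1 and 80.2 and 336 and 285 CPM (2.34, SE 0.12, adjusted p = 6.05e-17).

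**Figure D3:**
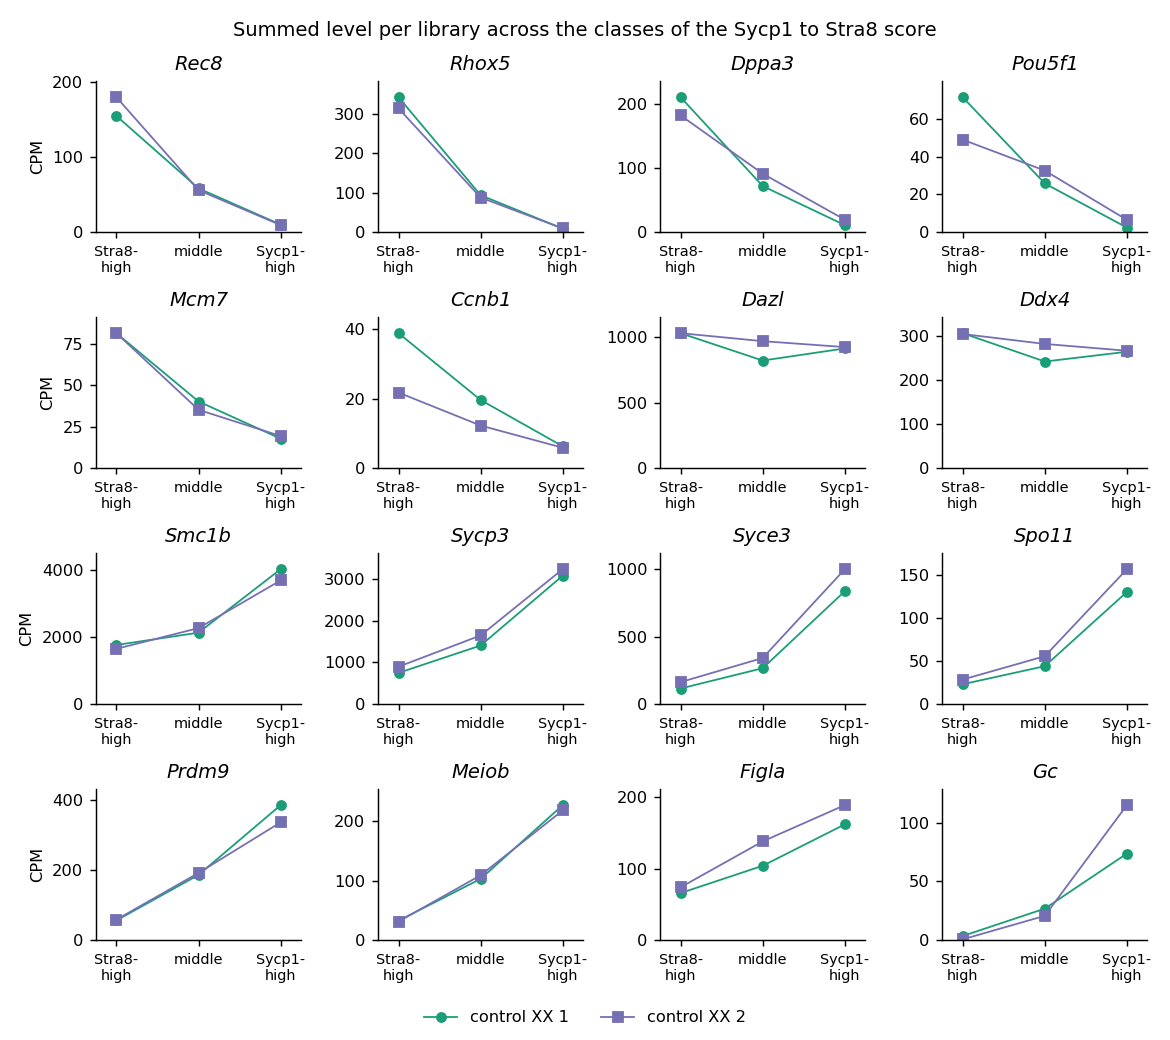
Summed level in CPM (vertical axes, from 0) of 16 genes in the Stra8-high, middle and Sycp1-high class of the Sycp1 to Stra8 score (horizontal axes), with 1 line per control XX library. Rec8, Rhox5, Dppa3, Pou5f1, Mcm7 and Ccnb1 go down in both libraries, Dazl and Ddx4 stay within a narrow range and the other 8 genes go up.

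Genes of pluripotency and the early germ cell fell. Of 16 tested (21 in the files), 12 were lower and 1 higher, with a median log2 fold change of -3.31. *Pou5f1*, the pluripotency factor OCT4, was at 71.3 and 48.9 CPM in the Stra8-high, 25.8 and 32.6 CPM in the middle and 2.45 and 6.56 CPM in the Sycp1-high class (-3.51, SE 0.27, adjusted p = 7.89e-13). *Sox2*, its partner, went from 37.7 and 38.7 to 1.05 and 0.904 CPM (-5.16, SE 0.36, adjusted p = 1.40e-13) and *Dppa3*, also called Stella, from 211 and 183 to 11.2 and 19.7 CPM (-3.49, SE 0.16, adjusted p = 5.12e-18). *Dppa5a* (-3.14, SE 0.12, adjusted p = 2.81e-20) and *Utf1* (-4.11, SE 0.28, adjusted p = 9.01e-14) fell too. The gene that rose was *Lin28b*, from 28.3 and 24.5 to 58.4 and 51.1 CPM. *Pou5f1* was found in 43.6% and 34.7% of all germ cells and *Sox2* in 24.5% and 13.5%, against 4.49% and 2.43% and 0.397% and 0.285% of the other control XX cells.

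Genes of DNA replication fell in 14 of 17 cases and 1 rose. The helicase subunit *Mcm7* went from 81.5 (both libraries) to 17.8 and 19.4 CPM (-1.94, SE 0.17, adjusted p = 1.60e-11) and *Tyms*, which makes thymidylate, from 55.2 and 45.5 to 5.94 and 8.59 CPM (-2.55, SE 0.23, adjusted p = 5.13e-11). The gene that rose was *Ccne2*, cyclin E2, from 101 and 103 to 172 and 182 CPM (0.95, SE 0.11, adjusted p = 5.22e-09), while *Ccne1* went from 50.1 and 55.0 to 16.8 and 15.8 CPM. Mitosis genes were divided, with 6 higher and 8 lower of 16. *Ccnb1*, cyclin B1, fell from 38.8 and 21.7 to 6.29 and 5.88 CPM (-2.10, SE 0.26, adjusted p = 3.88e-08) and *Ube2c*, of the anaphase machinery, from 129 and 105 to 19.6 and 19.2 CPM (-2.43, SE 0.15, adjusted p = 9.42e-15). *Bub1*, a spindle checkpoint kinase, rose from 192 and 177 to 467 and 425 CPM (1.44, SE 0.09, adjusted p = 2.40e-14), as did *Mki67*, *Top2a*, *Cenpf*, *Tpx2* and *Birc5*.

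Of the oocyte program, 2 genes were higher and 4 lower of 9 tested. *Figla* rose from 66.0 and 74.0 to 162 and 189 CPM (1.48, SE 0.11, adjusted p = 1.26e-12), and *Sohlh2*, a transcription factor of early oocytes, fell from 72.8 and 92.4 to 27.6 and 26.9 CPM (-1.42, SE 0.16, adjusted p = 3.49e-09). *Dazl*, which chose the cells, was at 1032 (both libraries) CPM in the Stra8-high and 916 and 926 CPM in the Sycp1-high class, and *Ddx4* at 307 and 305 and 265 and 267 CPM. Granulosa markers were lower in 7 and higher in none of 10 genes, and in 2 of 7 genes among the cells below the somatic limit. Without the cells above it, and with the 3 classes drawn anew over the cells that remained, 6103 of 9969 genes (61.2%, with 30.4% higher and 30.9% lower) passed, 5555 of them shared with the first list, and the axis genes stood at 7 higher and 1 lower of 8 as before, the central element genes at 5 of 5 and the pluripotency genes at 12 lower of 15. Genes for DNA breaks then stood at 5 higher and 1 lower of 7, those of telomere attachment at 3 higher and 2 lower of 5, recombination genes at 13 higher and 3 lower of 20 and mitosis genes at 5 higher and 9 lower of 16. With both changes, falls were larger for *Rec8* (-6.51), *Pou5f1* (-4.61), *Sox2* (-6.67), *Dppa3* (-4.10), *Phlda2* (-9.38), *Sct* (-5.90) and *Msx1* (-5.32), and such fitted folds depend on the prior count where the Sycp1-high class is near 0.

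The largest rises among well expressed genes were in *Gc*, the vitamin D binding protein, which went from 3.51 and 0.679 CPM in the Stra8-high class over 26.8 and 20.7 CPM in the middle to 73.8 and 115 CPM in the Sycp1-high class (5.13, SE 0.28, adjusted p = 3.36e-16). It was at 0.686 and 0.846 CPM in the other control XX cells. Next were *Tsga10*, from 18.8 and 16.3 to 177 and 158 CPM (3.41, SE 0.15, adjusted p = 5.42e-19), the DNA polymerase gene *Poln* (3.21, SE 0.19, adjusted p = 1.39e-15), *Grk4* (3.06, SE 0.16, adjusted p = 6.07e-17) and *Hspb11* (3.03, SE 0.10, adjusted p = 1.58e-21), followed by *Meiob*, *Ccnb3*, *Syce3*, *Prdm9* and *Ankrd31*. *Ccnb3*, the X-linked cyclin B3, went from 13.5 and 9.51 to 96.1 and 62.2 CPM.

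Among well expressed genes, the largest fall was in *Phlda2*, an imprinted gene known for its role in placental growth. It went from 137 and 154 over 44.0 and 41.8 to 0.35 and 2.26 CPM (-6.40, SE 0.26, adjusted p = 1.17e-19). Next among these was the X-linked homeobox gene *Rhox5*. Its level went from 341 and 313 over 93.7 and 87.8 to 9.09 and 9.72 CPM (-4.93, SE 0.15, adjusted p = 1.08e-22). In the other control XX cells *Phlda2* was at 1.70 and 1.17 CPM and *Rhox5* at 2.62 and 2.46 CPM. *Sct*, the hormone secretin, fell from 55.1 and 108 to 1.75 and 4.07 CPM (-4.62, SE 0.24, adjusted p = 5.95e-17) and *Ccnd1*, cyclin D1, from 122 and 181 to 7.34 and 12.2 CPM (-3.79, SE 0.17, adjusted p = 1.53e-18). *Msx1*, a homeobox gene that acts in meiotic entry, fell from 106 and 172 to 10.1 and 8.14 CPM (-3.76, SE 0.20, adjusted p = 2.34e-16) and the retinoic acid binding gene *Crabp1* from 70.8 and 84.9 to 5.24 and 6.33 CPM (-3.58, SE 0.21, adjusted p = 1.12e-15). The rest of the first 10 were *Rec8*, *Dppa3*, *Dppa5a* and *Gsr*, a reductase of glutathione.

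Among sequences upstream of these genes, 3 short motifs were counted in the 250 bases before the RefSeq start of the gene (GRCm38.p6, 1 start per gene, both strands), which can lie within the gene in another annotation. These were CNCCTCAG, the letters of the motif known for STRA8, the E-box CACGTG and TCCCGC, a core of E2F sites. The 4 shown are those of *Sycp3*, *Hormad1* and *Dmc1*, which rose along the spread, and of *Sycp1*, which made the score. The windows of *Stra8* and *Rec8*, which overlap the gene in the annotation used for the coordinates above by more than that of *Sycp3* does, are not shown but are counted in the shares given next. The sequences run from 5′ to 3′ on the strand of the gene, with matches to any of the 3 motifs in capitals.
Sycp1, chr3:102936101-102936350, minus strand: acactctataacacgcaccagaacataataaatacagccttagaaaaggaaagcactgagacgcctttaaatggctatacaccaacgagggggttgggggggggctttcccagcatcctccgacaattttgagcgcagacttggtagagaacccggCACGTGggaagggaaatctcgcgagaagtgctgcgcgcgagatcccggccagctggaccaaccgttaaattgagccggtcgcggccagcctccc
Sycp3, chr10:88459337-88459586, plus strand: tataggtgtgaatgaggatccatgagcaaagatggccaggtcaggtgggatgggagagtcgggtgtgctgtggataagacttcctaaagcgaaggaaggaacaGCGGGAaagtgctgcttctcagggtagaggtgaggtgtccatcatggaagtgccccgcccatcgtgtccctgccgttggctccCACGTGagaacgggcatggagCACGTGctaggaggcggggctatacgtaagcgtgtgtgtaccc
Hormad1, chr3:95559427-95559676, plus strand: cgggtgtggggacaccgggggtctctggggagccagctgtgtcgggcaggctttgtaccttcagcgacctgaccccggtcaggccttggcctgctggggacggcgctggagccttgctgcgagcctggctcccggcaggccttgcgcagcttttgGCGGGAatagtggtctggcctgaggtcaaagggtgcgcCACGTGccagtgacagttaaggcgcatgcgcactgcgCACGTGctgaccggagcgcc
Dmc1, chr15:79605110-79605359, minus strand: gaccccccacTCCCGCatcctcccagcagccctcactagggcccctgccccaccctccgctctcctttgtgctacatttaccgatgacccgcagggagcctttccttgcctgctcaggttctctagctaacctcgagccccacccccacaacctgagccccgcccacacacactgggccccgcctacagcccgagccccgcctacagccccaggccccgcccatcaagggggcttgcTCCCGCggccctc
Upstream of *Sycp1* there was 1 match to CACGTG. *Sycp3* and *Hormad1* each had 2 matches to CACGTG and 1 to TCCCGC, and *Dmc1* had 2 to TCCCGC. None of the 4 held CNCCTCAG.

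Over all genes, CNCCTCAG was found in 9.02% of 2472 promoters of genes higher in the Sycp1-high class and in 5.99% of 2352 promoters of genes higher in the Stra8-high class, against 7.17% of 8789 promoters of genes tested and 6.39% of all 27025. CACGTG stood at 8.45% and 9.10%, and TCCCGC at 32.4% and 33.0%. Of the 57 genes of the meiotic lists in the files, 44 matched a promoter, and these held CNCCTCAG in 3 (6.82%), CACGTG in 7 (15.9%) and TCCCGC in 24 (54.5%), against 7.17%, 8.59% and 32.4% of the genes tested. A match is not a site, and these shares were not tested.

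The germ cells of control XX were then set against those of dKO XY, to ask how far cells chosen by the same rule differed. Without *Dazl* and *Ddx4*, edgeR called 6042 of 14537 genes (41.6%), of which 3083 (21.2%) stood higher and 2959 (20.4%) stood lower in the control XX cells. Both libraries of a group were separate animals, and p-values measure only the spread between these 2 and 2 libraries. Cells of 1 library share their source and were summed. The dKO XY germ cells had somatic transcripts above the limit in 135 (30.5%) and 173 (44.6%) cells. No UMI of *Stra8* was found in 191 (43.2%) and 152 (39.2%) of the dKO XY germ cells. What part the share of such cells had in the summed differences was not tested.

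Most of the meiotic lists held more genes higher than lower in control XX. Axis genes were higher in 7 and lower in none of 8, central element genes in 6 of 6, genes for DNA breaks in 7 of 7 and recombination genes in 15 of 20, with 2 lower. Their median log2 fold changes were 2.03, 2.22, 3.30 and 1.86. Genes of meiotic entry were higher in 3 and lower in 3 of 11, and those of telomere attachment higher in 3 and lower in 2 of 5. *Sycp3* was at 1508 and 2342 CPM in control XX, 193 and 148 CPM in dKO XY and 120.0 and 49.9 CPM in control XY (control XX against dKO XY, 3.46, SE 0.30, adjusted p = 3.85e-07). *Prdm9* was at 175 and 244 CPM in control XX and 8.87 and 9.37 CPM in dKO XY (4.49, SE 0.26, adjusted p = 7.07e-09), and *Meiob* at 101 and 152 and 4.68 and 3.33 CPM (4.94, SE 0.30, adjusted p = 1.14e-08). *Rad21l* (4.53, SE 0.28, adjusted p = 1.57e-08), *Syce3* (3.91, SE 0.32, adjusted p = 2.43e-07), *Dmc1* (2.94, SE 0.24, adjusted p = 2.17e-07) and *Spo11* (2.86, SE 0.29, adjusted p = 1.63e-06) were higher as well.

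*Stra8* and *Sycp1* were also higher in control XX. *Stra8* was at 674 and 319.6 CPM in control XX, 200.2 and 201 CPM in dKO XY and 4.61 and 3.69 CPM in control XY (1.25, SE 0.27, adjusted p = 0.00172). Without control XX 1 its difference no longer passed, at a log2 fold change of 0.68 and an adjusted p of 0.0886. *Sycp1* was at 939.9 and 1222 CPM in control XX, 299 and 244 CPM in dKO XY and 137 and 81.3 CPM in control XY (1.95, SE 0.25, adjusted p = 2.03e-05). At least 10 UMIs of *Stra8* were found in 97 (21.9%) and 93 (24.0%) of the dKO XY germ cells and in 0 of 24 control XY germ cells, which allows a share of up to 12.5% over the cells of both libraries, for counting error only. *Smc1b* (2.13, SE 0.25, adjusted p = 8.20e-06) and *Meioc* (2.30, SE 0.22, adjusted p = 8.16e-07) were higher too.

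**Figure D4:**
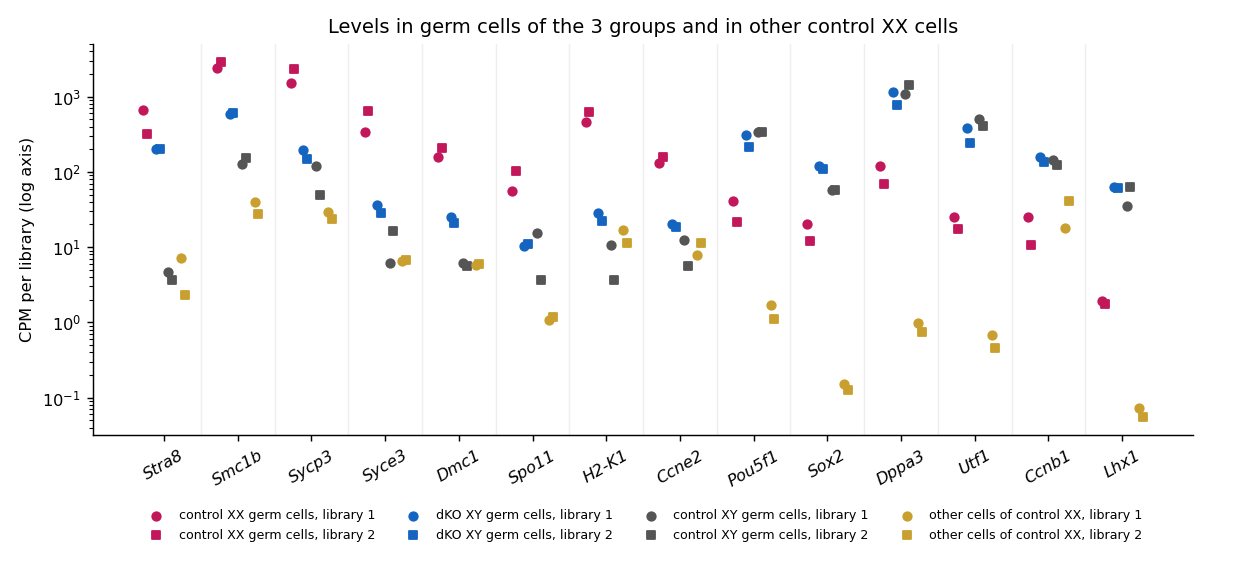
Level in CPM per library (vertical log axis) of 14 genes (horizontal axis) in the germ cells of control XX, dKO XY and control XY and in the other cells of control XX (circles library 1, squares library 2). The meiotic genes from Stra8 to Spo11, H2-K1 and Ccne2 are highest in control XX germ cells, while Pou5f1, Sox2, Dppa3, Utf1, Ccnb1 and Lhx1 are lower there than in either kind of XY germ cell.

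Early germ cell genes were lower in control XX, in 19 of 21 genes with 1 higher and a median log2 fold change of -2.86. *Pou5f1* was at 40.8 and 21.9 CPM in control XX, 305 and 212 CPM in dKO XY and 337 and 338 CPM in control XY (-3.10, SE 0.29, adjusted p = 6.99e-07). *Dppa3* was at 120.4 and 70.0, 1146 and 779 and 1087 and 1429.6 CPM (-3.40, SE 0.30, adjusted p = 4.16e-07), *Utf1* at 25.1 and 17.4, 379 and 239.9 and 508 and 412 CPM (-3.92, SE 0.28, adjusted p = 6.94e-08) and *Sox2* at 20.3 and 12.0, 119 and 109 and 56.9 and 57.3 CPM (-2.86, SE 0.24, adjusted p = 2.92e-07). Mitosis genes were lower in 10 and higher in 1 of 16, with *Ccnb1* at 25.1 and 10.6 CPM in control XX and 157 and 137 CPM in dKO XY (-3.09, SE 0.29, adjusted p = 9.91e-07), while *Ccne2* was higher (2.86, SE 0.22, adjusted p = 1.30e-07).

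The 10 largest rises in control XX also held 3 genes of the major histocompatibility complex, *H2-K1* at 463 and 619.8 CPM against 28.8 and 22.5 CPM in dKO XY (4.36, SE 0.27, adjusted p = 1.69e-08), *H2-D1* at 322 and 467 against 20.3 and 13.3 CPM (4.51, SE 0.30, adjusted p = 3.23e-08) and *H2-Ab1* at 92.0 and 142 against 5.17 and 4.13 CPM (4.61, SE 0.29, adjusted p = 1.55e-08). *H2-K1* was at 16.7 and 11.4 CPM in the other control XX cells and went from 195 and 194 CPM in the Stra8-high to 1003 and 883 CPM in the Sycp1-high class (2.46, SE 0.09, adjusted p = 3.23e-20). *H2-K1* and *H2-D1* are near copies of each other, so how reads were split between them is uncertain. *Figla* was also higher, at 101 and 154 against 9.96 and 6.66 CPM (3.89, SE 0.29, adjusted p = 8.17e-08), and so was *Inca1*, an inhibitor of cyclin A1 and its kinase (4.44, SE 0.31, adjusted p = 5.63e-08).

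Genes higher in dKO XY germ cells included the homeobox genes *Hesx1*, at 0.0834 and 0.118 CPM in control XX and 97.9 and 49.1 CPM in dKO XY, and *Lhx1*, at 1.92 and 1.76 and 62.9 and 60.3 CPM (-5.10, SE 0.27, adjusted p = 3.18e-09). In control XY germ cells *Hesx1* was at 73.8 and 85.0 CPM and *Lhx1* at 35.4 and 62.8 CPM. *Nanos2*, of the male germ line, was at 0.0834 and 0 CPM in control XX, 4.25 and 2.71 CPM in dKO XY and 35.4 and 29.6 CPM in control XY. Others were genes of Sertoli and Leydig cells, such as *Ptgds*, at 5.58 and 5.53 CPM in control XX and 187 and 323 CPM in dKO XY (-5.55, SE 0.29, adjusted p = 2.97e-09), and *Cyp17a1* (-6.96, SE 0.30, adjusted p = 3.80e-10, and -8.06 without the cells above the somatic limit). Granulosa markers were higher in control XX in 6 of 10 genes, and without the cells above the somatic limit higher in none and lower in 2 of 9. Stromal markers were lower in control XX in 5 of 8 genes (5 of 7 without those cells) and endothelial markers in 5 of 7 (4 of 6), with none higher. The somatic limit was set on granulosa, stromal, Sertoli and epithelial markers. Leydig and endothelial genes are not among them, so values without those cells cannot show whether Leydig or endothelial transcripts were removed. All 8 Sertoli markers were lower in control XX germ cells, and 7 of 8 without the cells above the somatic limit. Their sum was 77.4 and 64.5 CPM in control XX and 791 and 1357 CPM in dKO XY germ cells, and 16.4 and 12.0 and 80.9 and 97.7 CPM without these cells, and their part in the other differences was not tested. *Cyp26b1*, which breaks down retinoic acid, was at 1.17 and 0.235 CPM in control XX and 10.6 and 21.1 CPM in dKO XY. The other cells of dKO XY held 44.9 and 93.1 CPM, and the dKO XY germ cells below the somatic limit 6.47 and 5.25 CPM.

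Without the cells above the somatic limit, 6761 of 12717 genes (53.2%, with 26.9% higher and 26.2% lower) passed between control XX and dKO XY, and the meiotic and early germ cell groups kept their direction with 7 of 8, 6 of 6, 7 of 7 and 16 of 20 meiotic genes higher and 18 of 20 early genes lower. In cells with at least 5 UMIs of *Stra8* and *Sycp1* together, 5840 of 14140 genes (41.3%) passed, and 6451 of 12560 (51.4%, with 26.2% higher and 25.1% lower) without the cells above the somatic limit.

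A comparison limited to cells with at least 10 UMIs of *Stra8* was added after seeing the data, with 162 and 71 control XX and 97 and 93 dKO XY germ cells. Of 11948 genes, 2202 (18.4%) passed, of which 1217 (10.2%) stood higher and 985 (8.24%) stood lower in the control XX cells. Without control XX 2 the count was 927, and DESeq2 called 1322. Without the cells above the somatic limit it was 2652 of 10729 (24.7%, with 13.1% higher and 11.6% lower), and early germ cell genes were lower in 16 and higher in 1 of 20, genes for DNA breaks higher in 7 of 7 and recombination genes higher in 13 of 20. *Sycp1* was at 736 and 794 CPM in control XX and 616 and 442 CPM in dKO XY, a difference that did not pass (0.49, SE 0.21, adjusted p = 0.114).

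*Stra8* itself, which chose these cells, was at 1086 and 737 CPM in control XX and 745 and 650.4 CPM in dKO XY, so its level was not matched. Among these cells, too, most but not all of the meiotic lists held more genes higher than lower in control XX. Axis genes were higher in 7 of 8, central element genes in 5 of 6, genes for DNA breaks in 6 of 7 and recombination genes in 12 of 20. Of these only 1 recombination gene, *Mnd1*, was lower. Genes of meiotic entry were higher in 2 and lower in 2 of 9, and those of telomere attachment higher in 3 and lower in 1 of 5. *Sycp3* was at 1136 and 1650.2 CPM against 519.7 and 359.5 CPM (1.62, SE 0.24, adjusted p = 3.03e-04), *Prdm9* at 124 and 189 against 29.1 and 23.7 CPM (2.52, SE 0.24, adjusted p = 5.05e-06) and *Meiob* at 65.2 and 109 against 15.6 and 9.21 CPM (2.75, SE 0.29, adjusted p = 1.42e-05). The histone gene *Hist1h2aa* (3.08, SE 0.26, adjusted p = 1.30e-06) was among the 10 largest rises, with *H2-K1* (2.32, SE 0.24, adjusted p = 1.12e-05) and *H2-D1* (2.57, SE 0.27, adjusted p = 1.39e-05). Early germ cell genes were lower in 15 of 20 and higher in none, with *Pou5f1* at 63.2 and 34.0 CPM in control XX and 243 and 217 CPM in dKO XY (-2.26, SE 0.23, adjusted p = 9.59e-06), *Dppa3* at 184 and 125 and 723 and 657 CPM (-2.20, SE 0.21, adjusted p = 5.05e-06) and *Utf1* at 38.5 and 31.9 and 202 and 188 CPM (-2.51, SE 0.19, adjusted p = 4.50e-07). *Ccnb1* was lower (-1.82, SE 0.23, adjusted p = 6.63e-05) and *Ccne2* higher (1.85, SE 0.20, adjusted p = 1.66e-05) here too. Granulosa markers were higher in 7 of 10 genes (0 of 8 without the cells above the somatic limit) and Sertoli markers lower in 6 of 7 (5 of 5). Immune markers summed to 2.14 and 2.48 CPM in control XX and 72.4 and 104 CPM in dKO XY. Below the limit they stood at 1.85 and 2.07 and at 91.6 and 148 CPM, and their part in the differences was not tested.

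X-linked transcripts made up a larger share in these germ cells than in the somatic cells beside them, given here as a description without a test. Without *Xist*, the germ cells of control XX held 4.15 and 4.34 X-linked UMIs per 100 autosomal UMIs, and 4.29 and 4.42 in cells below the somatic limit. The other control XX cells held 3.72 and 4.01. Germ cells of dKO XY stood at 2.83 and 2.91 and those of control XY at 2.86 and 2.78, below the other cells of dKO XY (3.82 and 3.81) and control XY (3.90 and 3.78). The control XX germ cells were thus above, and the XY germ cells below, the somatic cells of their own libraries in every library.

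**Figure D5:**
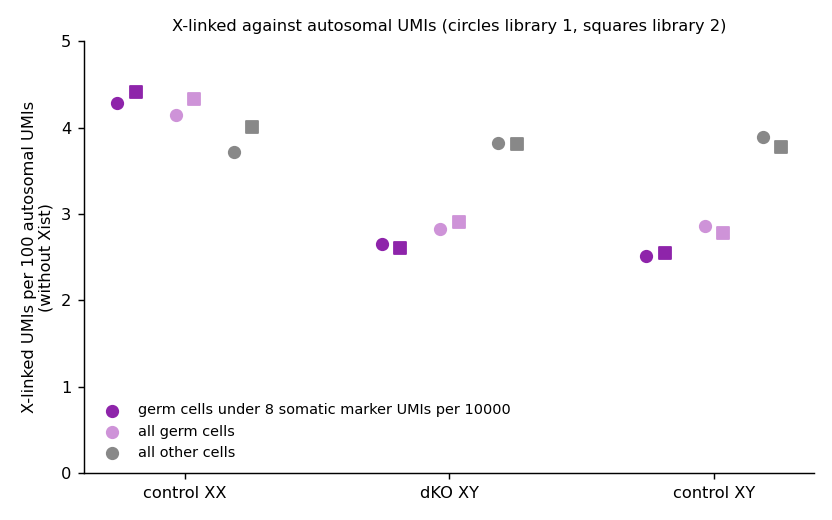
X-linked UMIs per 100 autosomal UMIs, without Xist (vertical axis, from 0), in germ cells below the somatic limit, all germ cells and all other cells of each group (horizontal axis), with 1 point per library. Other cells lie between 3.72 and 4.01 in all 6 libraries, control XX germ cells between 4.15 and 4.42 and XY germ cells between 2.51 and 2.91.

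Between control XX and dKO XY germ cells, 167 of 500 X-linked genes (33.4%) passed with a rise and 74 (14.8%) with a fall in control XX, with a median log2 fold change of 0.28, against 19.9% and 21.4% of 12555 autosomal genes and a median of -0.05. Without the cells above the somatic limit, 195 of 439 X-linked genes (44.4%) passed with a rise and 72 (16.4%) with a fall, with a median of 0.45. The autosomal genes then stood at 25.4% and 27.4% of 11141. Among cells with at least 10 UMIs of *Stra8* the X-linked genes were higher in 139 and lower in 21 of 436, with a median of 0.40, against 948 and 918 of 10633 autosomal genes. Without the cells above the somatic limit these were 159 and 20 of 384 X-linked and 1112 and 1164 of 9607 autosomal genes. From the Stra8-high to the Sycp1-high class X-linked genes were higher in 106 (24.3%) and lower in 154 (35.2%) of 437, with a median of -0.28. Autosomal genes were higher in 27.6% and lower in 26.8% of 10618, with a median of -0.04. Without those cells the X-linked genes stood at 97 and 149 of 351 and the autosomal ones at 29.2% and 31.4% of 8910. The X-linked UMIs per 100 autosomal went from 4.27 and 4.59 to 4.12 and 4.31.

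*Xist*, the RNA that coats the inactive X, was found in 63.1% and 45.9% of the control XX germ cells, and in 46.9% and 23.2% of those below the somatic limit, against 98.4% and 99.6% of the other control XX cells. Its level was 388 and 225 CPM in the germ cells, 25.5 and 17.6 CPM in those below the limit and 1523 and 1093 CPM in the others. In the classes it was at 322 and 229, 586 and 369 and 252 and 139 CPM from Stra8-high to Sycp1-high, with the highest level in the middle class, which also held the most cells above the limit. The Y-linked gene *Eif2s3y* had no UMI in control XX germ cells and was at 128 and 99.2 CPM in those of dKO XY. All genes placed on the Y together held 635 and 560 UMIs in control XX germ cells and 6853 and 5725 UMIs in those of dKO XY. The source of the Y-assigned UMIs in control XX was not tested.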

How the data were processed

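Gonads of control XX, control XY and dKO XY embryos were profiled by 10x single cell mRNA sequencing, with 2 libraries per group. Per the labels, the deposited values are raw counts of UMIs for each gene and called cell, which the authors made with Cell Ranger against mm10 and corrected for barcode swapping. Doublets were not removed by the rule, and Scrublet scores in scanpy 1.11.5 served an alternative without the 8% of cells with the highest scores per library. Raw counts were summed per library (and score class) and tested with edgeR 4.0.16 (TMM, filterByExpr, quasi-likelihood test, Benjamini-Hochberg), with DESeq2 1.42.0 as an alternative. Counts were also simulated with 100 genes changed by a log2 of 1 and 100 by a log2 of 2. The changed genes were picked from those with higher counts, and the rest did not change. A log2 change of 1 was found in 79% of changed genes for the score classes among 12004 genes. It was found in 68% for control XX against dKO XY among 14539 and in 69% for Stra8-rich cells among 11951. False calls made up 3.76%, 5.75% and 2.37% of the calls. Far more genes were called in the data, so these shares need not hold there. The simulated counts also had no shift between libraries and no score made from the same cells, so they cannot speak to either. The cells, lists and tests were chosen with earlier results of these data known. Genes were named from the lists, and from the 10 largest rises and falls per comparison taken from called genes whose mean log2 CPM reached 5 and that moved 1 way in each library. Levels are CPM of the summed counts. No library was left out. Precision is limited by 2 animals per group, with 11997561 UMIs in the germ cells of control XX 1 and 8505684 in those of control XX 2.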

Additional observations from a re-analysis of the deposited data

How the results depend on the processing

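The number of control XX germ cells ranged from 351 to 683 under the other rules, against 520, and the score classes were drawn anew over the cells each rule left. DESeq2 called 3988 genes between the score classes (6543 with edgeR) and 1322 genes between control XX and dKO XY germ cells with at least 10 UMIs of *Stra8* (2202 with edgeR). All other settings moved these counts by less than 1.5 times, apart from those given next. Leaving out 1 library gave 4043 to 5477 genes between control XX and dKO XY germ cells (6042 with all), 3990 to 5265 with at least 5 UMIs of *Stra8* and *Sycp1* (5840 with all) and 927 to 2492 with at least 10 UMIs of *Stra8*, the lowest without control XX 2. Taking 10 UMIs of *Stra8* in place of 5 UMIs of both genes brought the count from 5840 to 2202. The cause of these shifts was not tested, beyond the smaller number of samples or cells. Leaving out a library between the score classes leaves no residual degrees of freedom, so there only the folds of each library can be had.

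Replicate numbers were not used to pair the samples, since they name separate animals. The deviations of same-numbered libraries correlated at -0.24, -0.19 and -0.23 in the 3 comparisons. With 2 libraries per group this value only changes sign when the pairs are crossed, so it cannot show whether libraries share a source of spread. With the replicate block the counts were 5170, 5129 and 1712. With the pairs crossed, an alternative added after seeing the data, they were 7669, 7224 and 4132. Between the score classes the count without the library block was 5390. Many but not all of the genes named above were followed through the alternatives. Of those followed, *Stra8* between control XX and dKO XY lost its call without control XX 1 (0.68). *Sycp1* in cells with at least 10 UMIs of *Stra8* gained one without dKO XY 1 (0.80) and with the crossed pairs (0.51). None of the genes followed changed direction under the alternatives run. Among genes not followed, calls did change: mitosis genes higher in the Sycp1-high class went from 6 to 5 of 16 without the cells above the somatic limit.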
